A study of Mus musculus with 6 samples.

Results

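The type I hair keratins are the acidic keratins of the hair shaft, and 9 of their genes, Krt31, Krt32, Krt33a, Krt33b, Krt34, Krt35, Krt36, Krt39 and Krt40, were followed in mouse skin. They were taken by symbol from the 54146 Ensembl gene IDs in the files, and all 9 were found. Total RNA of skin was sequenced from 3 mice under chronic restraint stress (CRS), in which an animal is repeatedly confined, and from 3 control mice (CON), sampled after 12 weeks. The sources used here give no strain, sex, age, body site or restraint schedule. Values are FPKM (fragments per kilobase of exon, scaled to library depth), so levels can be compared between genes. The study's title concerns pigmentation under psychological stress, and the comparison here asks how these shaft genes stood in CRS skin beside CON skin.

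Keratin filaments form from pairs of a type I and a type II chain, and the hair shaft uses its own set of both. In the growing follicle, cells leaving the matrix switch these genes on in sequence as they move up into the cortex, the bulk of the shaft, and into the cuticle, its outer scales. Krt35 is among the earliest, starting close to the matrix. Krt31, Krt33a, Krt33b and Krt34 are cortical keratins that follow it, Krt32 belongs to the cuticle, and Krt39 and Krt40 come late, higher in the shaft. Krt36 is also made outside the shaft, in the papillae of the tongue. Levels in whole skin therefore depend on how many follicles are making hair: in bulk tissue, fewer cells of a type and less RNA per cell cannot be told apart.

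The 9 genes lie on chromosome 11, all on the minus strand, in the order Krt39, Krt40, Krt33a, Krt33b, Krt34, Krt31, Krt32, Krt35 and Krt36 by annotated start. The 250 bases before the start were available from RefSeq (GRCm38.p6) for 7 of them, all but Krt33a and Krt35, and 6 are shown because these held at least 1 of the motifs compared here. Capitals mark 3 motifs, searched on both strands. CTTTGAAG is a form of the site known for LEF1, a transcription factor of hair keratin genes. TTTTATGNG is a T-rich run of the kind bound by homeodomain proteins, and TATAAA is the TATA box.
Krt31 (chr11:100050552-100050801, minus strand): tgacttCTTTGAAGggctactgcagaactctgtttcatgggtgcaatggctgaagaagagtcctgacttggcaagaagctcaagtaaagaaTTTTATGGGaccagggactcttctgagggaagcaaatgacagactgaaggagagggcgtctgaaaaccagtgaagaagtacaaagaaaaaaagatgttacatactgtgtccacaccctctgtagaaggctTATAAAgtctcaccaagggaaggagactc
Krt33b (chr11:100029869-100030118, minus strand): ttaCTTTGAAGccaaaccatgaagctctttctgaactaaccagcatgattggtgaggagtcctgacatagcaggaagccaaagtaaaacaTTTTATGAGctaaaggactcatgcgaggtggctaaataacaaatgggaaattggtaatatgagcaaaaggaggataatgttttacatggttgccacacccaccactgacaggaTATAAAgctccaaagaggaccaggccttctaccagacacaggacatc
Krt34 (chr11:100041555-100041804, minus strand): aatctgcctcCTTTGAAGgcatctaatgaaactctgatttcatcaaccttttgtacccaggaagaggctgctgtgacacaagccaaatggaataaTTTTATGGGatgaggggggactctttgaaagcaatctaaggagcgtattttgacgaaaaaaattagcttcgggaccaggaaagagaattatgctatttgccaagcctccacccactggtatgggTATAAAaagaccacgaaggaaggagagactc
Krt32 (chr11:100088270-100088519, minus strand): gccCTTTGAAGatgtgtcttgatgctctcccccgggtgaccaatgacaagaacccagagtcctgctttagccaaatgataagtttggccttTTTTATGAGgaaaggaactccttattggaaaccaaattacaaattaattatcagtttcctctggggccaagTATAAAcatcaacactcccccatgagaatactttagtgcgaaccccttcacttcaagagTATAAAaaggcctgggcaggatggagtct
Krt39 (chr11:99521339-99521588, minus strand): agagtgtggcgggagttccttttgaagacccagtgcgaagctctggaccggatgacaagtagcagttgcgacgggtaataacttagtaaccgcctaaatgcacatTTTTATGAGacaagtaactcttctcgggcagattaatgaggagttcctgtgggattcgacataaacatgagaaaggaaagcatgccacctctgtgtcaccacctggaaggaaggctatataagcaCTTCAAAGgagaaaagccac
Krt40 (chr11:99543221-99543470, minus strand): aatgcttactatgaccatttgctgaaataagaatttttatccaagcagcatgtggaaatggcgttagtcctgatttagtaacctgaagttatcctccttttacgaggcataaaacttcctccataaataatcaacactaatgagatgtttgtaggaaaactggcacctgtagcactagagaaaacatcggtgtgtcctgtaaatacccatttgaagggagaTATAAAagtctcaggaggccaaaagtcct

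CTTTGAAG was found in 5 of the 7 promoters and in 1.42% of 32851 RefSeq promoters of the same length. In Krt31, Krt32, Krt33b and Krt34 it began 240 to 247 bases before the start, on the gene's strand, and in Krt39 it lay on the opposite strand, 20 bases before the start. TTTTATGNG was also found in 5 of 7, against 0.843% of all promoters, and in Krt31, Krt32, Krt33b and Krt34 it began 85 to 88 bases after the first motif. TATAAA was found in 5 of 7, against 12.4% of all promoters, and it does not overlap the other motifs. Krt36 held none of the 3 and Krt40 only TATAAA, which says only that these letters are not in this window. Both available type II hair keratin promoters, of Krt82 and Krt84, held TTTTATGNG and neither held CTTTGAAG. None of the 7 inner root sheath keratin promoters held either, while all 7 held TATAAA. Krt31, Krt33b and Krt34 are close copies, with coding sequences 87.0% to 90.8% identical, so their matches cannot be counted as independent. The motifs were chosen with these sequences in view, and a match is a description of letters, not of binding.

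**Figure D1:**
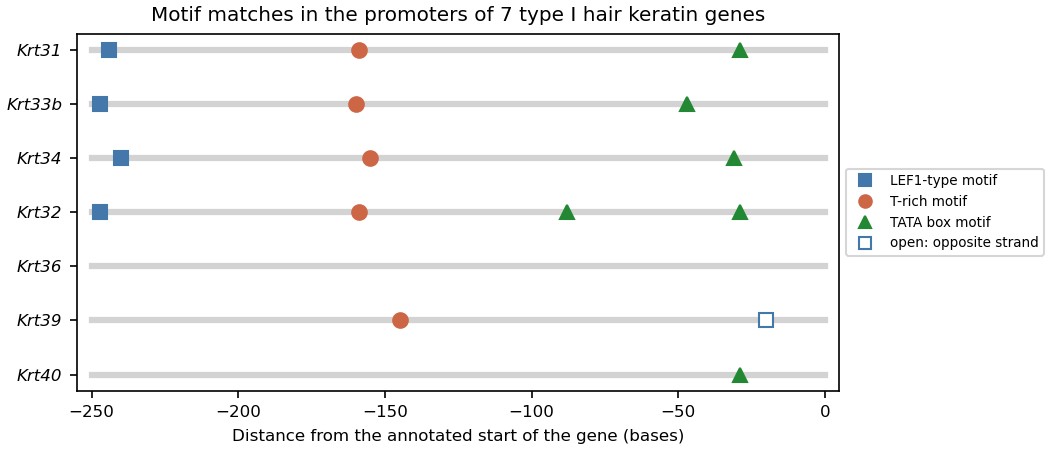
Positions of motif matches in the 250 bases before the annotated start of 7 type I hair keratin genes; the x axis is distance from the start in bases, each grey line is 1 promoter, and the open symbol is a match on the opposite strand. Krt31, Krt33b, Krt34 and Krt32 share the order of the LEF1-type motif (240 to 247 bases before the start), the T-rich motif and a TATA box.

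Depth, recovered from the FPKM steps, was 13.3 to 25.7 M fragments per library, and the members rested on 165 to 109506 fragments each. CON replicate 1 stood apart from the other libraries. Its 12 skeletal muscle marker genes summed to 14750 FPKM, against 1648 and 2876 in the other CON libraries and 500 to 3064 in CRS. Its 13 mitochondrially encoded protein genes took 13.9% of fragments, against 1.72% to 3.52% elsewhere. Its 8 dermal fibroblast markers summed to 291 FPKM, against 916 to 1431 elsewhere. Xist, which marks an inactive X chromosome, was at 2.80 FPKM there and at most 0.168 FPKM elsewhere, while the Y-linked gene Ddx3y was at 8.68 to 32.7 FPKM in all 6. CRS replicate 2 also stood apart, by its array weight, which limma sets lower for a library that lies farther from its group. That weight was 0.16, against 0.66 to 5.42 elsewhere. Without CRS replicate 2, genes lower at an unadjusted p under 0.05 (limma) went from 462 to 4098. The skin label was borne out by the basal keratin Krt14, at 769 to 1198 FPKM in all libraries. Whether CON replicate 1 holds RNA of 1 mouse only, and the part of these differences in the keratin values, was not tested, and the main results are also given without this library.

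Type I hair keratins were among the abundant transcripts of all 6 skins. Their 9 FPKM values summed to 1315, 3856 and 2597 in CON replicates 1 to 3 and to 3595, 4147 and 6772 in CRS replicates 1 to 3. CRS replicate 3 was highest and CON replicate 1 lowest, and the groups overlapped through CON replicate 2. As a share of all summed FPKM, CRS replicate 2 was highest, at 1.16% against 1.11% in CRS replicate 3, and the groups also overlapped. The sum was 2589 ± 1271 in CON and 4838 ± 1697 in CRS (SD, n = 3), a ratio of means of 1.87, and the means of the log2 sums differed by 0.98. Without CON replicate 1 that difference was 0.56. The 4 cortical keratins Krt31, Krt33a, Krt33b and Krt34 made up 75.6% to 87.4% of the sum in CON and 86.6% to 92.7% in CRS.

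The order of levels was much the same in every skin. By mean FPKM over the 6 libraries it ran from Krt34 (1039) and Krt33a (1037) through Krt33b (754), Krt31 (451), Krt35 (252), Krt32 (55.6), Krt39 (55.5) and Krt36 (51.6) to Krt40 (18.0). Krt34 and Krt33a changed places between libraries, Krt34 being the higher in 2 of 6. Krt33a lay above Krt33b, Krt33b above Krt31, Krt35 above Krt32 and Krt36 above Krt40 in 6 of 6. Krt31 lay above Krt35 in 5 of 6, CON replicate 1 being the exception. Krt32, Krt39 and Krt36 did not keep an order: Krt39 was the 8th of the 9 genes in all CON libraries and the 6th in all CRS libraries.

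Across all genes, CRS was compared with CON by limma on log2(FPKM + 0.1), with Benjamini-Hochberg adjustment over 28389 genes. At an adjusted p of 0.05, 0 genes were called higher (0%) and 0 lower (0%), so 0 of the 9 members were called; voom on recovered fragments also called 0. At an unadjusted p under 0.05, 261 genes were higher (0.919% of those tested) and 462 lower, and 2 of the 9 members, Krt39 and Krt40, were among the higher; the lower genes were 1.63% of those tested and 0 members. All 9 members passed the filter on low values, their lowest value being 8.13 FPKM. A log2 fold change above 0 was found in 8 of 9 members, where 32.2% of all genes had one. The 3 CRS values lay above the 3 CON values in Krt34, Krt39 and Krt40, 3 of 9 members, where 1.65% of all genes did so, and in 0 members did they lie below (5.19% of all genes). The median log2 fold change of the members was 1.06, that of all genes -0.20, so relative to all genes it was 1.26. Without CON replicate 1 the members' median was 0.61, or 0.78 relative to all genes, and Krt39 alone kept an unadjusted p under 0.05.

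**Figure D2:**
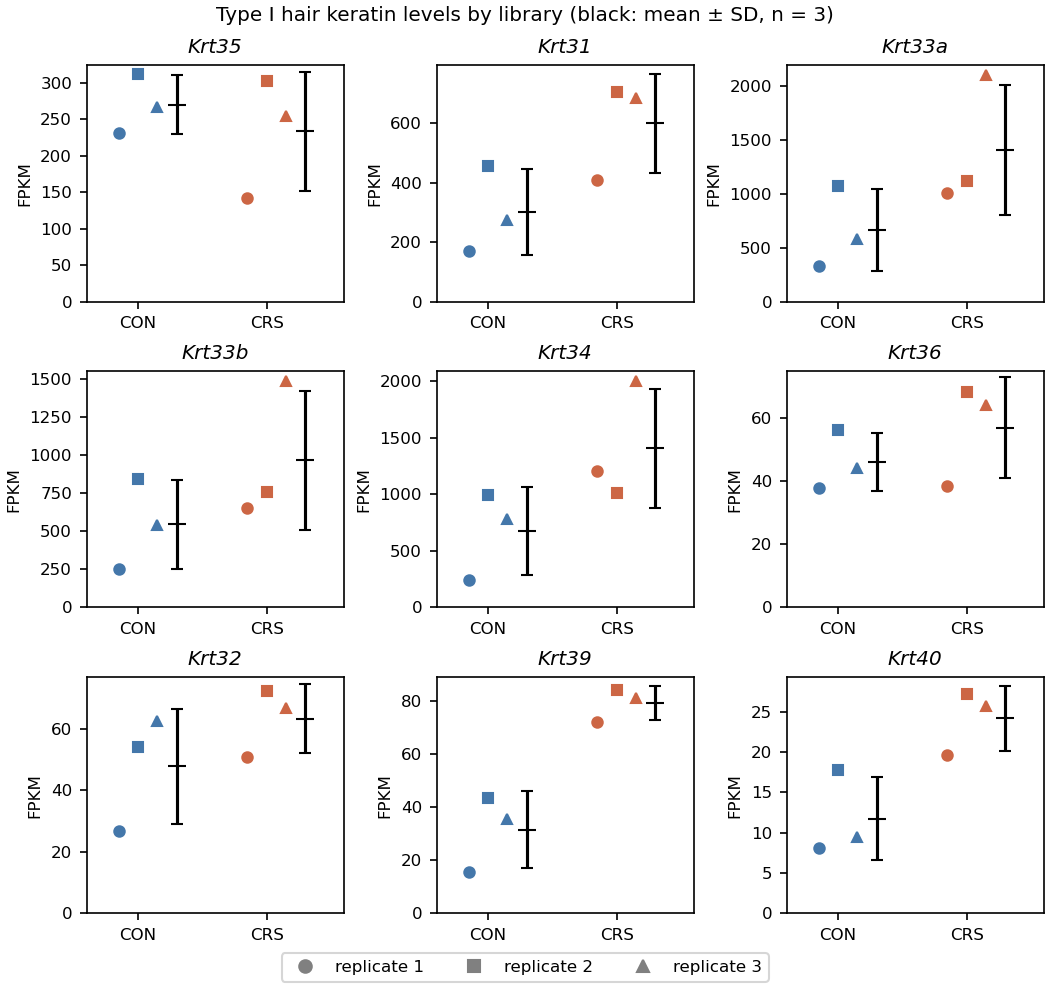
FPKM of each type I hair keratin by group, with 1 symbol shape per replicate number and the mean ± SD (n = 3) in black; each y axis starts at 0. The groups stand apart for Krt39 (15.6 to 43.7 in CON, 72.2 to 84.4 in CRS), Krt40 and, narrowly, Krt34, while Krt35 has its lowest value, 143, in CRS replicate 1.

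Krt35, the early keratin, was the member without a higher level in CRS. It stood at 232, 313 and 267 FPKM in the CON mice against 143, 303 and 255 in the CRS mice, the groups overlapping. Its means were 270 ± 40.5 and 234 ± 82.2 FPKM (SD, n = 3). The log2 fold change was -0.27 (SE 0.42, 95% interval -1.24 to 0.70, limma adjusted p = 0.9999), or -0.072 relative to all genes. It was 0.050 without CRS replicate 1, which held the lowest value. Over the 6 libraries Krt35 spanned 2.19-fold, where the cortical keratins spanned 4.12-fold (Krt31) to 8.33-fold (Krt34).

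The cortical keratins had their lowest values in CON replicate 1 and, except Krt31, their highest in CRS replicate 3. Krt34 stood at 240, 998 and 779 FPKM in the CON mice against 1208, 1010 and 2001 in the CRS mice, the groups being apart by the small gap between 998 and 1010. Its log2 fold change was 1.24 (SE 0.68, 95% interval -0.32 to 2.79, limma adjusted p = 0.9999), and 0.61 without CON replicate 1. Krt33a stood at 328, 1076 and 584 FPKM in the CON mice against 1005, 1122 and 2106 in the CRS mice, overlapping through CON replicate 2. Its log2 fold change was 1.18 (SE 0.63), and 0.75 without CON replicate 1. The closely related Krt33b stood at 254, 841 and 539 FPKM in the CON mice against 649, 755 and 1487 in the CRS mice, with CON replicate 2 above CRS replicates 1 and 2. Its log2 fold change was 0.89 (SE 0.62), and 0.42 without CON replicate 1 or 0.52 without CRS replicate 3. Krt31 stood at 171, 457 and 276 FPKM in the CON mice against 409, 705 and 685 in the CRS mice, again overlapping through CON replicate 2. Its log2 fold change was 1.06 (SE 0.51), and 0.71 without CON replicate 1. For these 4 genes the exact permutation p ran from 0.1 to 0.3, 0.1 being the smallest that 3 against 3 allows.

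These 4 genes are close copies, which bears on how fragments were divided among them. Their coding sequences were 87.0% to 93.3% identical, Krt33a and Krt33b being the closest pair, and the other pairs among the 9 genes were 57.6% to 70.5% identical. Of all 50-base windows in its transcripts, Krt34 shared 33.1%, Krt31 28.1%, Krt33b 24.2% and Krt33a 17.8% with another gene, nearly all with each other. Krt39 and Krt40 shared 0%. How the authors counted fragments that fit several genes is not given in the sources used here, so the split among the 4 cortical keratins is uncertain. The ratio of Krt33a to Krt33b was 1.29, 1.28 and 1.08 in CON and 1.55, 1.49 and 1.42 in CRS, the groups not overlapping. That ratio does not depend on library scaling, and it was picked after the values were seen.

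Among the cuticle and late keratins, Krt39 and Krt40 were the members whose groups stood widest apart relative to their spread. Krt39 stood at 15.6, 43.7 and 35.5 FPKM in the CON mice against 72.2, 84.4 and 81.5 in the CRS mice. Its means were 31.6 ± 14.4 and 79.3 ± 6.39 FPKM (SD, n = 3). The log2 fold change was 1.45 (SE 0.41, 95% interval 0.50 to 2.39, limma unadjusted p = 0.00758, adjusted p = 0.9999), and it lay between 1.00 and 1.74 with each library left out. Krt40 stood at 8.13, 17.7 and 9.41 FPKM in the CON mice against 19.6, 27.2 and 25.7 in the CRS mice, every CRS library above every CON library. Its log2 fold change was 1.10 (SE 0.37, 95% interval 0.27 to 1.94, limma unadjusted p = 0.0155, adjusted p = 0.9999), and it lay between 0.88 and 1.44 with each library left out. For both genes the exact permutation p was 0.1. The cuticle keratin Krt32 stood at 26.9, 54.1 and 62.7 FPKM in the CON mice against 50.8, 72.3 and 66.9 in the CRS mice, with overlap. Its log2 fold change was 0.48 (SE 0.39), and 0.10 without CON replicate 1. Krt32 overlaps an annotated antisense gene, Gm11571, at 12.3 to 44.2 FPKM, and without strand information their fragments cannot be told apart. Krt36 stood at 37.9, 56.2 and 44.3 FPKM in the CON mice against 38.6, 68.2 and 64.3 in the CRS mice, a log2 fold change of 0.28 (SE 0.35) with overlapping groups, and 0.15 without CON replicate 1.

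**Figure D3:**
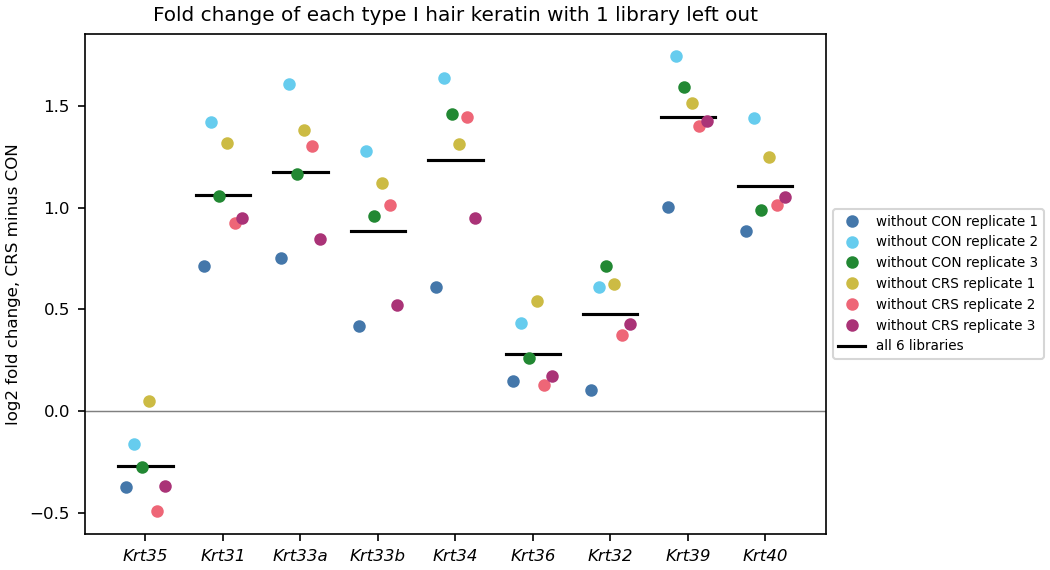
Log2 fold change (CRS minus CON, FPKM + 0.1) of each type I hair keratin with all 6 libraries (black line) and with 1 library left out (coloured points). Krt39 stays at or above 1.00, the 4 cortical keratins come to 0.42 to 0.75 without CON replicate 1, and Krt35 lies near or under 0.

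Measured within a library, the other members stood higher relative to Krt35 in CRS skin. The 4 cortical keratins together were at 4.28, 10.8 and 8.17 times the Krt35 level in CON and at 22.9, 11.8 and 24.7 times in CRS. Krt39 and Krt40 together were at 0.102, 0.196 and 0.169 of Krt35 in CON and at 0.642, 0.368 and 0.421 in CRS. Neither ratio overlapped between the groups, although CRS replicate 2 came close to CON replicate 2 for the cortical keratins. Taken singly, 7 of the 8 ratios to Krt35 had all CRS values above all CON values, the exception being Krt33b, where 2.89% of the other 28388 genes did so. The 8 ratios share 1 denominator, so they are not independent, and they were examined after the values were seen. Krt36, at a low and even level, also showed this: its ratio to Krt35 was 0.163, 0.180 and 0.166 in CON and 0.270, 0.225 and 0.253 in CRS. With Krt36 as the denominator, 3 ratios (Krt31, Krt39 and Krt40) were higher in every CRS library, 1 (Krt35) was lower and 4 overlapped. The share of all genes was not taken for this denominator. With any other member but Krt35 as the denominator, 5 to 7 of the 8 ratios overlapped. Krt35 made up 17.6%, 8.11% and 10.3% of the summed type I hair keratins in CON and 3.97%, 7.31% and 3.76% in CRS.

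**Figure D4:**
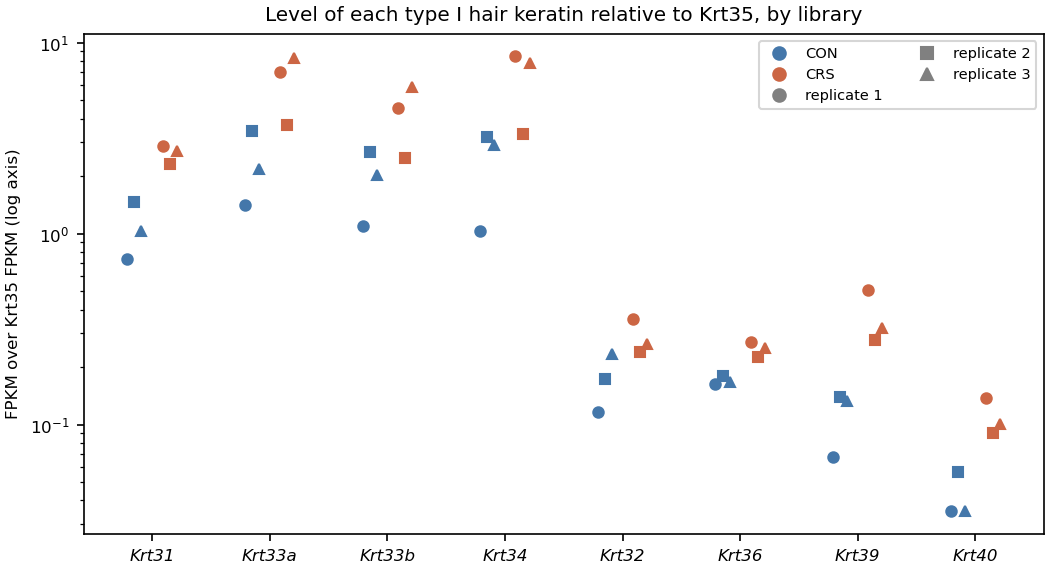
FPKM of 8 type I hair keratins divided by the Krt35 FPKM of the same library, on a log axis, CON in blue and CRS in orange, with 1 symbol shape per replicate number. In 7 of the 8 genes all CRS points lie above all CON points; Krt33b overlaps.

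The type II hair keratins, the basic partners, had values like those of the type I genes. Of the 7 on the list 6 were measured, Krt81, Krt82, Krt83, Krt84, Krt86 and Krt87, and Krt85, the usual early partner of Krt35, was not analysed here. All 6 had log2 fold changes above 0, where 32.2% of all genes did, with a median of 1.20, or 0.72 without CON replicate 1. Of these, 0 passed the adjusted threshold with limma. At an unadjusted p under 0.05, 2 were higher with limma, where 0.919% of all genes were, and 4 with voom (407 of 28389 genes). The largest fold change was that of Krt84, at 1.80 (SE 0.57). The summed type I level was 1.45, 1.20 and 1.35 times the summed type II level in CON and 1.19, 1.02 and 1.19 times in CRS, the groups being apart by the small gap between 1.20 and 1.19. Without Krt35 the ratio ran from 1.10 to 1.21 in CON and from 0.950 to 1.14 in CRS, and the groups overlapped. While the type I sum spanned 5.15-fold over the libraries, its ratio to the type II sum spanned 1.41-fold.

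The 8 inner root sheath keratins, which belong to the sleeve around the shaft, also had log2 fold changes above 0, with a median of 0.85. That median was 0.17 without CON replicate 1, with 6 of 8 above 0, and 0.054 without CON replicate 1 and CRS replicate 2 together, with 4 of 8 above 0. The type I hair keratins, at 1.06 with all libraries, had medians of 0.61 and 0.58 under the same omissions. The order of the families was the reverse without CON replicate 3 (sheath 1.27, type I hair 0.99) and without CRS replicate 3 (0.97 and 0.85). The difference between the families was not tested. Of the 8 sheath genes, Krt74 is annotated as a transcribed unitary pseudogene. Its log2 fold change was 0.10 (SE 0.79), with 32.1 FPKM in CRS replicate 2 and 3.23 to 7.32 FPKM in the other libraries. Relative to the inner root sheath keratins the summed type I level was 0.575, 0.511 and 0.269 in CON and 0.380, 0.307 and 0.793 in CRS, with no separation. Relative to the basal keratins Krt5 and Krt14 it was 0.707, 2.17 and 1.98 in CON and 2.11, 1.86 and 3.58 in CRS, which also overlapped.

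Genes listed here as hair keratin regulators mostly had lower levels in CRS, as most genes did, by amounts that did not pass the test. Of 11 regulators, 10 had log2 fold changes under 0, where 67.8% of all genes did. Their median was -0.38, or -0.18 relative to all genes. Under median-ratio scaling, quantile normalization or voom 8 of 11 were under 0. The list's median relative to all genes was then -0.15, -0.24 and -0.083. None of the 11 passed the adjusted threshold with limma. At an unadjusted p under 0.05, 1 was lower (Msx1), where 1.63% of all genes were, and voom on recovered fragments gave 0 at either threshold. That count of lower regulators was 6 without CRS replicate 2, where 4098 of 28552 genes were lower at that p. It was 7 with array weights (6525 of 28389 genes) and 7 without CON replicate 1 and CRS replicate 2 together (2843 of 27853 genes). Without CON replicate 1 it was 0 (132 of 27809 genes). There the list's median went from -0.38 to -0.55, or from -0.18 to -0.39 relative to all genes. Hoxc13, the homeodomain factor required for hair keratin expression, was at 68.8, 58.1 and 94.1 FPKM in the CON mice against 40.1, 66.2 and 44.1 in the CRS mice, a log2 fold change of -0.56 (SE 0.35) with overlap. Lef1 was at 12.1, 6.96 and 14.1 FPKM in the CON mice against 4.23, 9.07 and 3.82 in the CRS mice, a log2 fold change of -0.99 (SE 0.44), also with overlap. Foxn1, another activator of hair keratin genes, was the regulator with a fold change above 0, at 0.46 (SE 0.37). The 10 proliferation genes, which mark dividing cells such as those of the matrix, all had log2 fold changes under 0, with a median of -0.84, or -0.82 without CON replicate 1, and 5 had an unadjusted p under 0.05, where 1.63% of all genes were lower at that p. That count was 10 without CRS replicate 2 or with array weights, where 4098 of 28552 and 6525 of 28389 genes were lower at that p. It was 4 without CON replicate 1 (132 of 27809 genes) and 2 with voom (145 of 28389 genes). Among 6 shaft enzymes and adhesion genes, all had log2 fold changes above 0, where 32.2% of all genes did. The median was 1.21, or 0.85 without CON replicate 1 and 0.69 without CRS replicate 2. Without these 2 libraries together it was 0.31, with 4 of 6 above 0. The largest was that of the cuticle gene Crisp1 at 1.97 (SE 0.69). The transglutaminase gene Tgm3 was at 1.22 (SE 0.44). Crisp1 and Tgm3 were the 2 with an unadjusted p under 0.05, where 0.919% of all genes were higher at that p, and without CON replicate 1 there were 0.

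**Figure D5:**
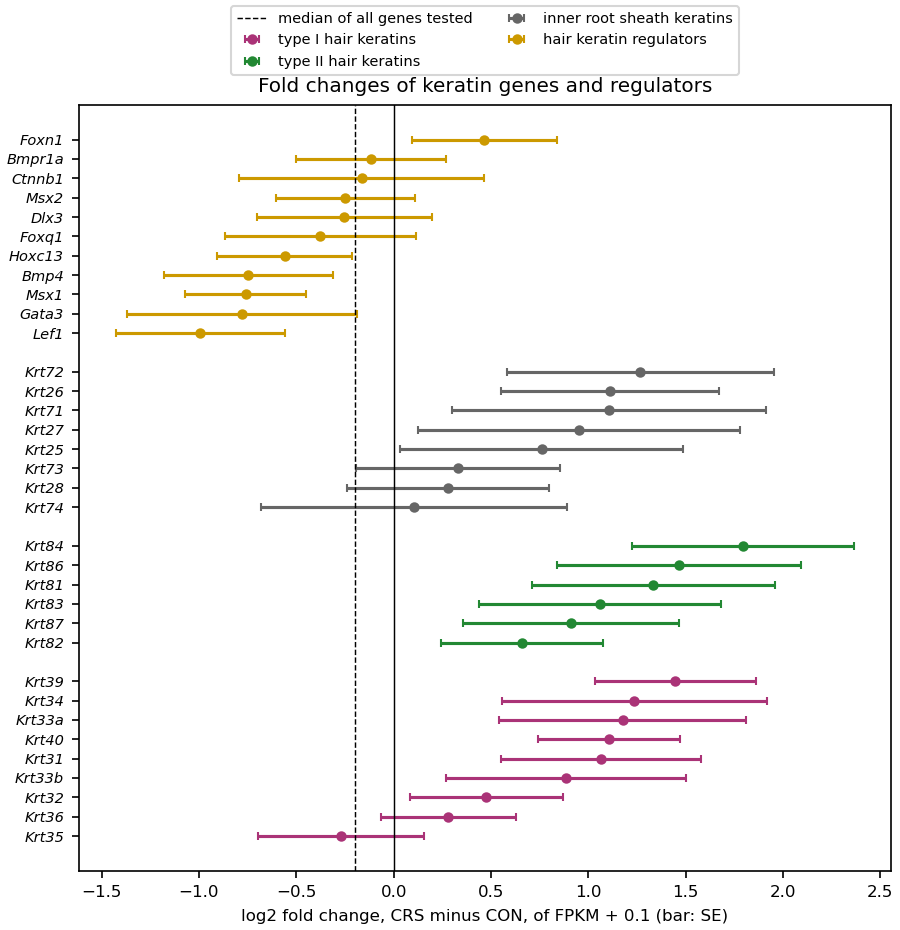
Log2 fold changes (CRS minus CON, FPKM + 0.1) with their SE for the type I hair keratins, type II hair keratins, inner root sheath keratins and hair keratin regulators; the dashed line is the median of all genes, -0.20. The keratins other than Krt35 lie to the right of 0 and the regulators other than Foxn1 to the left; with median-ratio scaling, quantile normalization or voom 8 of the 11 regulators were under 0.

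The mean log2 level of the 9 members was compared with every other named gene of at least 1 FPKM, 11662 in all, by Pearson's r over the 6 libraries. The likeness is a description over 6 points that share libraries and scaling, and low values in CON replicate 1 weigh heavily in it. The genes most alike were the type II hair keratins Krt87 (r = 0.997), Krt83 (0.995) and Krt81 (0.989), with Ano10 (0.996), Clu (0.993), Tmem56 (0.991) and Fads3 (0.988) beside them. Clu, which encodes the secreted chaperone clusterin, was at 24.9, 72.6 and 50.4 FPKM in the CON mice against 67.9, 103 and 105 in the CRS mice. Among the members themselves r ran from 0.98 (Krt33a with Krt33b) to -0.072 (Krt35 with Krt39). Krt35 had an r of 0.21 with the mean of the 9, itself included, and the other members 0.82 to 0.98.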

How the data were processed

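Per the labels' protocols, skin RNA was extracted with Trizol and made into Illumina libraries. The deposited values are FPKM made by the authors, 1 file per library; HISAT2 and the build GRCm39 are named in the submitters' processing notes, and the counting program, annotation, strand and versions are not given in the sources used here. Of 54146 gene IDs, 54079 matched GENCODE M21 (GRCm38), the source of symbols and merged exon lengths. Coordinates are given for RefSeq promoters (GRCm38.p6) only, and no RefSeq protein table was used here.

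The test covered genes with a mean FPKM of 0.1 or more, taken as log2(FPKM + 0.1), a scale that understates the change of low genes, with limma 3.58.1 (R 4.3.3; empirical Bayes moderation with a variance trend, two-sided, Benjamini-Hochberg adjustment, threshold 0.05). Group values are mean ± SD over 3 libraries, each taken as 1 mouse as the design text gives it; the exact permutation test is two-sided. Multiplied by exon length, FPKM values were whole multiples of a common step (98.1% to 98.3% of values up to 100 fragments within 0.05), which gave depths and fragments; these cover counting error only. Motifs, identities (Biopython 1.88; longest open reading frame) and figures (Python 3.11.15, matplotlib 3.10.9) were scripted, and the fit was tested on simulated data. The members and gene lists were chosen with earlier results of these data known. Named are all members, the lists of hair keratins, sheath keratins, regulators and shaft genes, and the 8 most alike genes (at most 3 per symbol root), of which 1 is not reported here. Alternatives covered pseudocount, filter, scaling, variance model, weights, voom, a replicate block and left-out libraries; scaling to Krt5 plus Krt14 was added after the data were seen.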

Additional observations from a re-analysis of the deposited data

How the results depend on the processing

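No gene passed the adjusted threshold under any of the 18 alternatives, and 0 members were called; the smallest adjusted p of a member was 0.0898, with array weights. The members' median log2 fold change lay between 0.58 and 1.42, and between 0.61 and 1.42 with each library left out. Krt35 ran from -0.49 to 0.050 with each library left out, turning without CRS replicate 1. Krt36 turned to -0.0023 without CON replicate 1 and CRS replicate 2 together. Members with an unadjusted p under 0.05 numbered 2, but 6 with array weights, 5 with voom, 4 without CON replicate 2, and 1 without CON replicate 1, without CON replicate 3 or without CON replicate 1 and CRS replicate 2 together. With array weights 1109 of 28389 genes were higher at that p, and 407 with voom, against 261. Those weights rest the CRS side mostly on CRS replicate 3 (5.42, against 0.66 and 0.16 for CRS replicates 1 and 2), the library with the highest type I sum. Median-ratio scaling moved the median of all genes from -0.20 to 0.011 and the members' median to 1.30, and genes at an unadjusted p under 0.05 from 261 higher and 462 lower to 458 and 189. Replicate numbers pair no samples by the labels; deviations of same-numbered libraries correlated at -0.12, 0.062 and 0.087, and no library correlated best with its own number. With the replicate block the members' median stayed at 1.06, and 0 genes were called. With 3 mice a group, the 95% intervals of 7 members span 0.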

Other observations

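Keratin-associated protein genes, whose products embed the keratin filaments of the shaft, had 57 annotated members, of which 56 were tested. All 56 had log2 fold changes above 0, where 32.2% of all genes did, with a median of 1.41, and 0 passed the adjusted threshold with limma. At an unadjusted p under 0.05, 19 were higher, where 0.919% of all genes were. Without CON replicate 1, 55 of 56 were above 0, the median was 0.92 and 2 were higher at that p, as were 122 of 27809 genes. Over the other single omissions that count ran from 4 without CRS replicate 3 (190 of 28888 genes) to 37 without CRS replicate 2 (778 of 28552 genes). With voom it was 43 (407 of 28389 genes). In 14 of them all CRS values lay above all CON values, where 1.65% of all genes did so. Their FPKM summed to 16096, 59448 and 26623 in CON and 78126, 44758 and 127610 in CRS, so that CRS replicate 2 lay below CON replicate 2. In CRS replicate 2 the type I hair keratins summed to 4147 FPKM, above the 3856 of CON replicate 2. As shares of all summed FPKM these were 1.16% and 0.785%. Such a share was not taken for the keratin-associated protein genes.

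Among type I keratins outside the shaft, 15 were on the list and 14 were tested. Of these, 10 had log2 fold changes above 0, where 32.2% of all genes did, and 4 under 0. The median was 0.32, or 0.52 relative to all genes. Without CON replicate 1 the median was 0.17, or 0.34 relative to all genes, with 8 of 14 above 0. With limma, 0 passed the adjusted threshold and 0 had an unadjusted p under 0.05. With voom on recovered fragments 2 were higher at that p, as were 407 of 28389 genes. With median-ratio scaling 12 of the 14 were above 0, and with quantile normalization 9. The list's medians relative to all genes were then 0.54 and 0.36. In Krt14, Krt16 and Krt23, 3 of the 14, all CRS values lay above all CON values, where 1.65% of all genes did so. Krt23 stood at 45.1, 182 and 155 FPKM in the CON mice against 237, 199 and 219 in the CRS mice, and was singled out after its values were seen. Krt14, also used above as a skin marker and for scaling, stood at 769 to 980 FPKM in CON and 1017 to 1198 in CRS.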
